A study of Mus musculus with 186 samples.

Results

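The clustered histone genes encode the linker histone H1 and the core histones H2A, H2B, H3 and H4, and were taken here as every gene of the table whose name begins with Hist1h, Hist2h, Hist3h or Hist4h, leaving out names ending in -ps. This gave 69 of 55421 genes: 6 H1, 20 H2A, 18 H2B, 12 H3 and 13 H4 genes. Their RNA was measured in 169 single inner cells of CD-1 mouse blastocysts, isolated by immunosurgery, which lyses the outer cells. Fresh embryos were taken at E3.25 (19 cells), E3.75 (22 cells) and E4.0 (14 cells), each in 2 experiments. Other embryos were cultured from E2.75 in KSOM medium with LY294002 (LY, 10 µM), which blocks PI3K, a lipid kinase downstream of growth factors, or with its solvent DMSO alone. Culture lasted 16 hours (31 DMSO and 31 LY cells) or 24 hours (28 DMSO and 24 LY cells), each in 3 experiments. All cells of a group with the same date in the labels make up an experiment, which pooled litters and served as the replicate. Only LY and DMSO of the same culture time shared dates. In every other comparison, stage, culture or culture time cannot be told apart from date.

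A nucleosome wraps DNA around pairs of H2A, H2B, H3 and H4, and H1 binds the linker DNA. Cells make most of this protein in S phase, when the new DNA is packed, from many near-identical genes that lie in clusters. Most clustered histone mRNAs have no polyA tail: they end shortly after a conserved stem-loop, which the protein Slbp binds and which drives their processing and their decay when DNA replication ends. Some of the genes can also yield polyadenylated RNA. The libraries measured here were made from polyA RNA primed at its 3′ end, and cDNA longer than 500 bases was kept, per the labels' protocols, so the values report what such a library captures of these genes and not their full mRNA output.

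The stem-loop is shown here because it separates the H4 genes from all others in sequence, and because its place in each gene model bears on what a polyA library can hold. Of the 69 members, 46 had a perfect stem-loop of 16 bases in their GENCODE M21 transcript models (build GRCm38, the same assembly as mm10). The loop of 4 bases is in capitals and the stem of 6 base pairs in lower case, written as DNA, 5′ to 3′.
Most frequent form (26 members, of H1, H2A, H2B and H3): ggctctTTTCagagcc
Most frequent H4 form (7 members): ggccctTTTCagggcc
Form with another loop end (6 members, of H1, H2B and H3): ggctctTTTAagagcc
H4 form with another loop end (2 members): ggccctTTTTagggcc
H4 form with a changed stem (2 members): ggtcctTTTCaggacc
H4 form with a changed loop (1 member): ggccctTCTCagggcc
Form of 1 H3 gene: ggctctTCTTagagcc
Form of 1 H2A gene: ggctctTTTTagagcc
Counted from the 5′ end of the stem-loop and against the most frequent form, the most frequent H4 form differed by T4C and A13G, the bases of a single stem pair. All 12 H4 genes with a stem-loop carried both substitutions, and no gene of another class did. The H4 form with a changed stem added C3T and G14A. The loop variants were C10A, C10T and T8C.

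Gene models differed in what follows the stem-loop. In 23 members the model ended within 100 bases after it, in 23 it ran on for 100 bases or more, and in 23 no stem-loop was found. Of the last, 15 had short models of about a coding sequence alone. The median share of cells in which a member was detected (a TPM of 1 or more) was 14.2%, 4.73% and 10.7% in these 3 sets, and the highest was 71.01%, 40.8% and 46.7%. By this measure, members with a model that ran on were not the more often detected ones. TPM divides by model length, however, so a longer model needs more reads to reach a TPM of 1. Hist1h2be, with a model of up to 2506 bases that ran on, was above 0 in 28 cells and detected in 10. For Hist1h2ap both numbers were 120. The most often detected members were of all 3 sets. Hist1h2ap, in first place, has a model of 482 bases that ends 3 bases after the stem-loop (chr13:21833026-21833507, minus strand, single exon H2A gene). Hist1h2bc, the second, has a model of 1156 bases without the stem-loop (chr13:23684199-23692908, plus strand, H2B). Hist1h4i, which came next (40.8% of cells), has a model that runs on for 330 bases. Hist1h2bq and Hist1h2br (37.3% each) have no stem-loop and models of up to 2015 and 2197 bases.

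By position, 56 members lie on chromosome 13 (cluster 1), 10 on chromosome 3, 2 on chromosome 11 and 1 on chromosome 6. The 14 members that were detected in at least 25% of all cells all belong to cluster 1. Within the clusters, 13 H2A genes sit head to head with an H2B gene, with 176 to 306 bases between the starts. Genes with neighbouring starts were not always detected together. Hist1h2bc was detected in 79 of 169 cells, whereas Hist1h2ac, which starts 251 bases away on the other strand, was at a TPM of 1 or more in none (0 of 169, which allows a share of up to 1.78%). Hist1h2ac was above 0 in 10 cells, at 0.39 TPM or less. Its model of 2482 bases needs more reads to reach a TPM of 1 than a shorter model does. Hist1h2ap and Hist1h2br start 236 bases apart. Hist1h2ap was detected in 46 of the 63 cells with Hist1h2br (73.02%) and in 71.01% of all cells.

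Promoters (250 bases before to 50 after the start, RefSeq, GRCm38.p6) were found for 61 members. On either strand, TATAAA stood in 35 of them (57.4%, against 14.2% of 27025 RefSeq promoters). CCAAT stood in 52 (85.2%, against 37.9%). Every matched promoter of an H1, H2A, H2B or H3 gene held CCAAT, against 3 of 12 H4 promoters. The octamer ATTTGCAT stood in 7 of 17 H2A and 6 of 16 H2B promoters and in no H1, H3 or H4 promoter (1.75% of all RefSeq promoters). Head-to-head genes share part of these windows, so 1 octamer can count for both. The Hist1h2ac start region, which faces Hist1h2bc, is printed as an example with the motif in capitals, read on the Hist1h2ac strand (minus).
Octamer, reverse complement, chr13:23684074-23684097: gtgggattATGCAAATgaagtttc
TATA box, chr13:23683978-23683999: gaacctacTATAAAagctgccg

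The depth of each cell is unknown, because TPM, an abundance scaled by transcript length to the same total in every cell, keeps no read totals. Cells had 3806 to 10220 genes at a TPM of 1 or more (median 6584), and the group means of this number ran from 5439 in 24h LY to 8084 in 16h DMSO. Epiblast markers, which define the pluripotent inner cells, were present: 6 to 10 of 10 were detected in at least 50% of the cells of each group. Of 12 trophectoderm (outer layer) markers, 3 or 4 were that frequent in each group, Elf5 was at 0 in every group but 24h DMSO, and group means of the marker score (mean log2(TPM + 1)) ran from 1.06 at E3.75 to 2.50 in 16h DMSO. Primitive endoderm markers reached 12 of 12 at E4.0 and 3 to 7 of 12 elsewhere. Of these, 5 passed the test at E4.0 against E3.75, with Srgn the strongest (log2 difference 4.97, SE 0.41, limma adjusted p = 4.2e-07), and none of the trophectoderm markers passed in any comparison.

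Clustered histone RNA was low and patchy. A cell had a median of 9 members at a TPM of 1 or more, with a range of 0 to 27. Their summed TPM per cell had a median of 279 and ran from 0 to 4529, and 13 cells stood at 1000 or more. A single member gave over 50% of the sum in 74 of the 167 cells with a sum of at least 1 (44.3%). Across members, 4 were at a TPM of 1 or more in no cell (Hist1h2ac, Hist2h2ac, Hist2h3c1 and Hist2h4), and 33 reached it in 17 or more of the 169 cells. Testing was limited to genes detected in 25% or more of the cells of some group, which 31 members were: 1 H1, 8 H2A, 10 H2B, 8 H3 and 4 H4. These 31 passed through the group where they are highest, so they are not a sample of the 69. For a member detected in few cells, a high value in that group adds no support.

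H2A gave the most RNA of the 5 classes, 58.0% of all clustered histone TPM, followed by H2B with 16.4%, H3 with 15.5%, H4 with 7.98% and H1 with 2.10%. Because TPM divides by model length while the reads come from the 3′ end, and models differ in length, this order is approximate. It also varied between groups. H3 exceeded H2B at E3.25 (27.4% against 11.2% of the group's summed TPM), E3.75, E4.0, 16h DMSO and 24h LY, and in 16h LY the H2A share (33.8%) was near that of H2B (33.1%). The H2A share rests on Hist1h2ap, which alone gave 42.97% of the summed TPM, was detected in 120 of 169 cells and was the highest of all members in 76 of the 167 cells. Hist1h2ag, the second H2A gene by mean log2(TPM + 1) over experiments, was detected in 60 cells. By mean TPM the second was Hist1h2ah (10.9 TPM, against 8.21 for Hist1h2ag), which was in 27 cells and was named after its values were seen. Of all 50-base windows of the Hist1h2ap model, 93.1% also occur in Hist1h2ao, so the split between these copies is uncertain. Their sum was at a TPM of 1 or more in 82.1% to 95.5% of the cells of each group.

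By mean log2(TPM + 1) over experiments, the leading members of the other classes were Hist1h2bc (79 cells) and Hist1h2bq (63 cells) for H2B, Hist1h3h (59 cells) and Hist1h3c (54 cells) for H3, Hist1h4i (69 cells) and Hist1h4m (18 cells) for H4, and Hist1h1c (54 cells) and Hist1h1a (9 cells) for H1. The order depends on the measure: Hist1h3e was in 56 cells with a mean of 12.4 TPM, against 9.34 TPM for Hist1h3c, and Hist1h1b was in 11 cells. Hist1h2bq shares 98.5% of its windows with Hist1h2br, and Hist1h3h shares 79.3% with Hist1h3i, so these single values are uncertain too. Hist1h2bc shares 30.6%, Hist1h4i 28.9% and Hist1h1c 8.54% with other transcripts, and their values are the more certain ones.

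**Figure D1:**
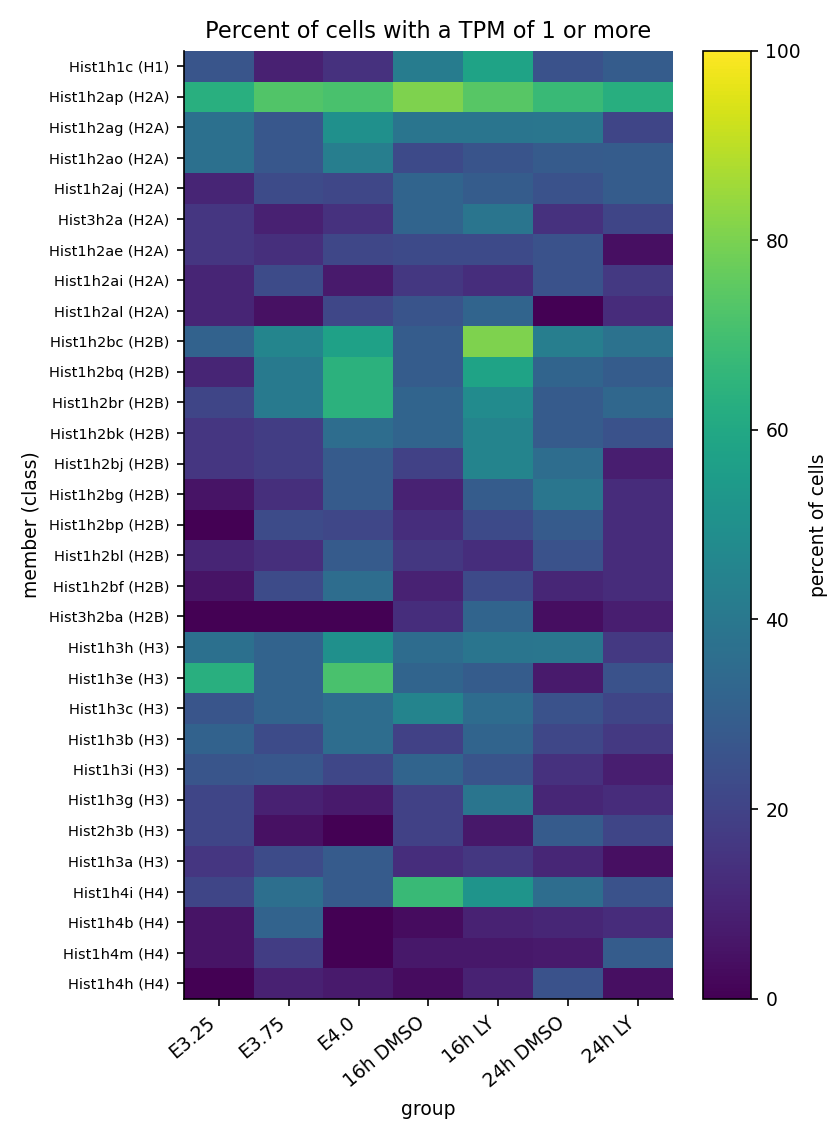
Percent of cells of each group (x axis) with a TPM of 1 or more for each of the 31 tested members (y axis, ordered by class). Hist1h2ap is frequent in all 7 groups (62.5% to 80.6% of cells), while Hist1h2bc stands at 80.6% in 16h LY and at 29.03% in 16h DMSO.

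On the log2(sum + 1) scale, group means over all members were lowest in 24h LY and highest at E3.75. These groups had the widest spread between experiments. Without the log the order was another: the mean over cells of the summed TPM was highest in 24h LY (675 TPM, against 533 at E3.75) and lowest in 16h DMSO (256 TPM). As experiment means of log2(sum + 1), it was 7.96 ± 0.26 at E3.25 (SD, n = 2), 8.64 ± 1.63 at E3.75 (n = 2), 8.14 ± 0.06 at E4.0 (n = 2), 7.79 ± 0.19 in 16h DMSO (n = 3), 8.40 ± 0.09 in 16h LY (n = 3), 7.78 ± 0.76 in 24h DMSO (n = 3) and 7.55 ± 1.13 in 24h LY (n = 3). The pooled SD between experiments was 0.815. At 16 hours the LY experiments (8.33, 8.50 and 8.36) all lay above the DMSO ones (7.98, 7.602 and 7.78), by 0.61 on average. In the other comparisons of 2 groups made here the experiments overlapped. The E3.75 mean joins unlike experiments, at 7.48 and 9.79. Without the higher one, E3.75 minus E3.25 goes from 0.68 to −0.48. A sum over members was given no p.

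**Figure D2:**
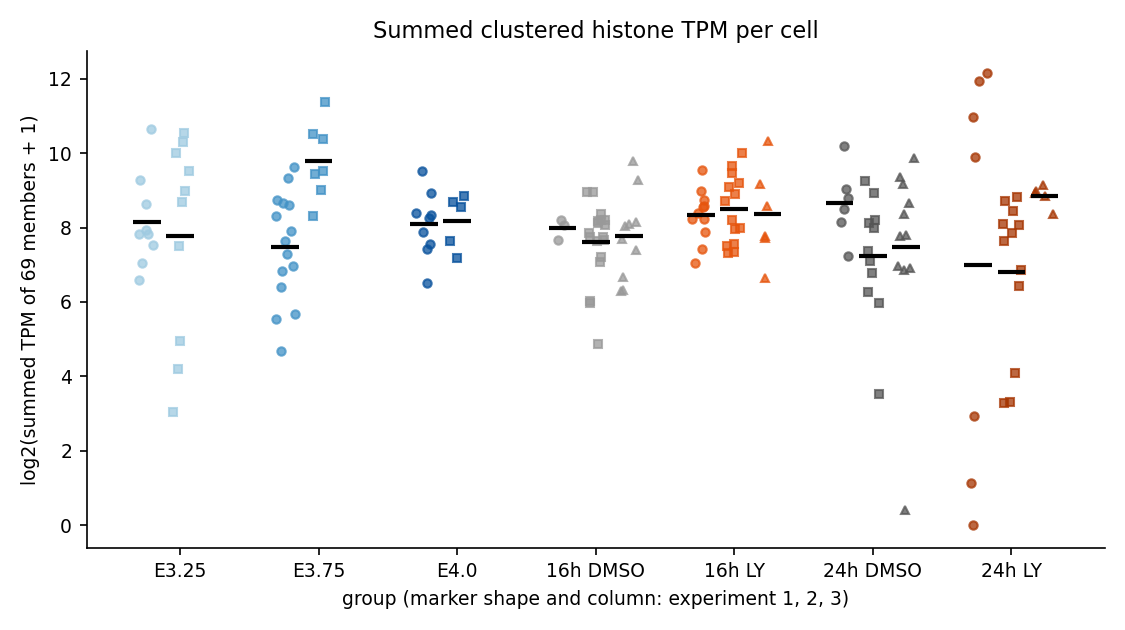
Each point is a cell, placed by group and experiment (x axis), at the log2 of its summed clustered histone TPM plus 1 (y axis), and black bars are experiment means. Cells of 24h LY span the whole range, from 0 to 12.1, and the second E3.75 experiment (mean 9.79) lies above the first (7.48).

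Single classes differed more than the total. The H2B sum was 6.59, 5.89 and 6.71 in the 3 experiments of 16h LY and 5.27, 3.48 and 2.93 in those of 16h DMSO, on the log2(sum + 1) scale. Every 16h LY experiment was above every 16h DMSO one, by 2.51 on average, and LY was higher on all 3 shared dates. Within sequencing run 1 the difference was 2.06 and within run 2 it was 3.54. Without Hist1h2bc, an alternative chosen after seeing the data, it was 1.92 and the groups overlapped, since the lowest LY value, 4.75, was below the highest DMSO value, 5.25. On each shared date LY was still higher (6.05 against 5.25, 4.75 against 3.29, and 6.29 against 2.79). At 24 hours the H2B sum was 2.28, 3.0 and 5.96 with LY and 3.67, 5.28 and 4.16 with DMSO, and the groups overlapped.

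The H4 sum was 3.32, 3.78 and 3.40 in 16h DMSO and 1.75 and 1.36 at E3.25, which do not overlap. It was 2.50 and 2.85 at E3.75 and 1.85 and 1.78 at E4.0. By group mean, the H3 sum was highest at E4.0 (5.15 and 5.92) and lowest in 24h DMSO (3.95, 2.45 and 2.12). The H1 sum stayed low, with group means from 0.92 at E4.0 to 2.96 in 16h LY. Group means of the H2A sum were between 6.17 and 6.63 except at E3.75 (7.26). Experiments were far apart at E3.75 (5.78 and 8.75) and in 24h DMSO (8.07, 5.56 and 5.56). Across all cells, after subtraction of experiment means, the class sums were little related to each other, with Spearman values from −0.05 (H2A with H2B) to 0.27 (H1 with H4).

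**Figure D3:**
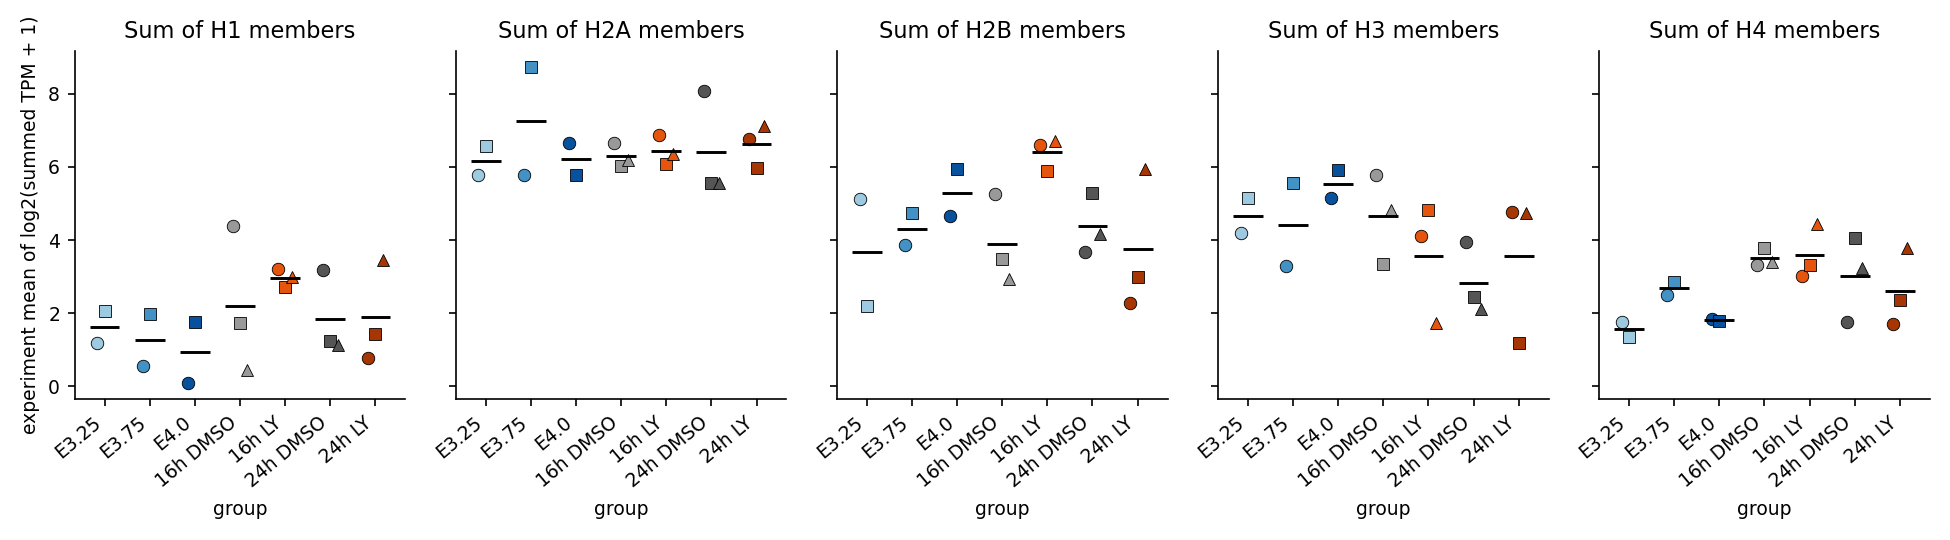
Experiment means of log2(summed TPM + 1) for each class (y axis, panels) in the 7 groups (x axis); marker shapes are experiments and bars are group means. The 3 experiments of 16h LY lie between 5.89 and 6.71 for H2B, above the 2.93 to 5.27 of 16h DMSO.

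No single member passed the test in any of 9 comparisons (limma on experiment means of log2(TPM + 1), adjusted over 11680 genes, threshold 0.05). Over all genes tested, the share called was 0% at E3.75 against E3.25, 1.41% at E4.0 against E3.75 and 1.67% at E4.0 against E3.25. It was 0% for LY against DMSO at 16 hours, 0% at 24 hours and 0% for the difference between these effects. It was 0.00856% for 24h against 16h DMSO, 0.0514% for 16h DMSO against E3.25 and 0% for 24h DMSO against E3.75. Against these shares, 0 of 31 members is near the background in each. Differences are given on the log2(TPM + 1) scale, where low genes appear to differ less than they do, and the mean over cells does not part the share of cells from the level in them.

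Among fresh stages, the H3 gene Hist1h3e had the smallest p of all members at E3.75 against E3.25 and at E4.0 against E3.75, without passing. Its experiment means were 2.23 and 4.03 at E3.25, 1.18 and 0.21 at E3.75, and 1.05 and 5.40 at E4.0. It was detected in 12 of 19, 7 of 22 and 10 of 14 cells. The E3.25 experiments lay above both E3.75 ones, whereas the E4.0 experiments spread around all of them. E3.75 minus E3.25 was −2.43 (SE 0.94, limma adjusted p = 1) and E4.0 minus E3.75 was 2.53 (SE 0.94, adjusted p = 0.31). Without the first E4.0 experiment the latter was 4.70 with an adjusted p of 0.0019, a call that rests on 1 experiment of 5 cells. Its model shares 73.4% of its windows with other genes.

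At E3.75 against E3.25, 2 members had an unadjusted p under 0.05 (4.59% of all genes did), Hist1h3e and the H4 gene Hist1h4b (1.14, SE 0.46, limma adjusted p = 1). Hist1h2bp (0.92) and Hist1h2aj (0.93) followed, the latter an H2A pseudogene model in GENCODE M21 that the naming rule keeps. Hist1h4b was detected in 18 of 169 cells, with its highest group mean at E3.75. The filter on low values may have kept it through that stage, so its values in comparisons with E3.75 add no support. Of the 31, 22 were above 0, with a median of 0.19, beside −0.09 for all genes. At E4.0 against E3.75, 3 members had an unadjusted p under 0.05 (9.49% of all genes): Hist1h3e, Hist1h4b (−1.21) and Hist1h2bl (0.93). Hist1h2ai stood at −1.28. Above 0 were 15 members and below it 15, with a median of 0.00 beside 0.29 for all genes.

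At E4.0 against E3.25, 3 H2B members had an unadjusted p under 0.05 (12.9% of all genes): Hist1h2bq (2.47, SE 0.79, limma adjusted p = 0.15), Hist1h2bl (0.97) and Hist1h2br (1.93). Hist1h2bg stood at 0.89. The Hist1h2bq means were 0.80 and 0.00 at E3.25, 1.41 and 1.79 at E3.75, and 1.66 and 4.09 at E4.0, so that E3.25 lay below both later stages. Without the first E4.0 experiment its E4.0 minus E3.25 difference was 3.69 with a limma adjusted p of 0.0245. Hist1h2bq and Hist1h2br are near-identical. Their summed TPM was at 1 or more in 4 of 19 cells at E3.25, 12 of 22 at E3.75 and 9 of 14 at E4.0, with experiment means of log2(sum + 1) of 1.01 ± 1.42, 2.05 ± 0.31 and 3.54 ± 2.05 (SD, n = 2). The pair thus had group means in stage order, with an E4.0 spread as wide as the steps. Of the 31 members 19 were above 0, with a median of 0.24 beside 0.20 for all genes.

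**Figure D4:**
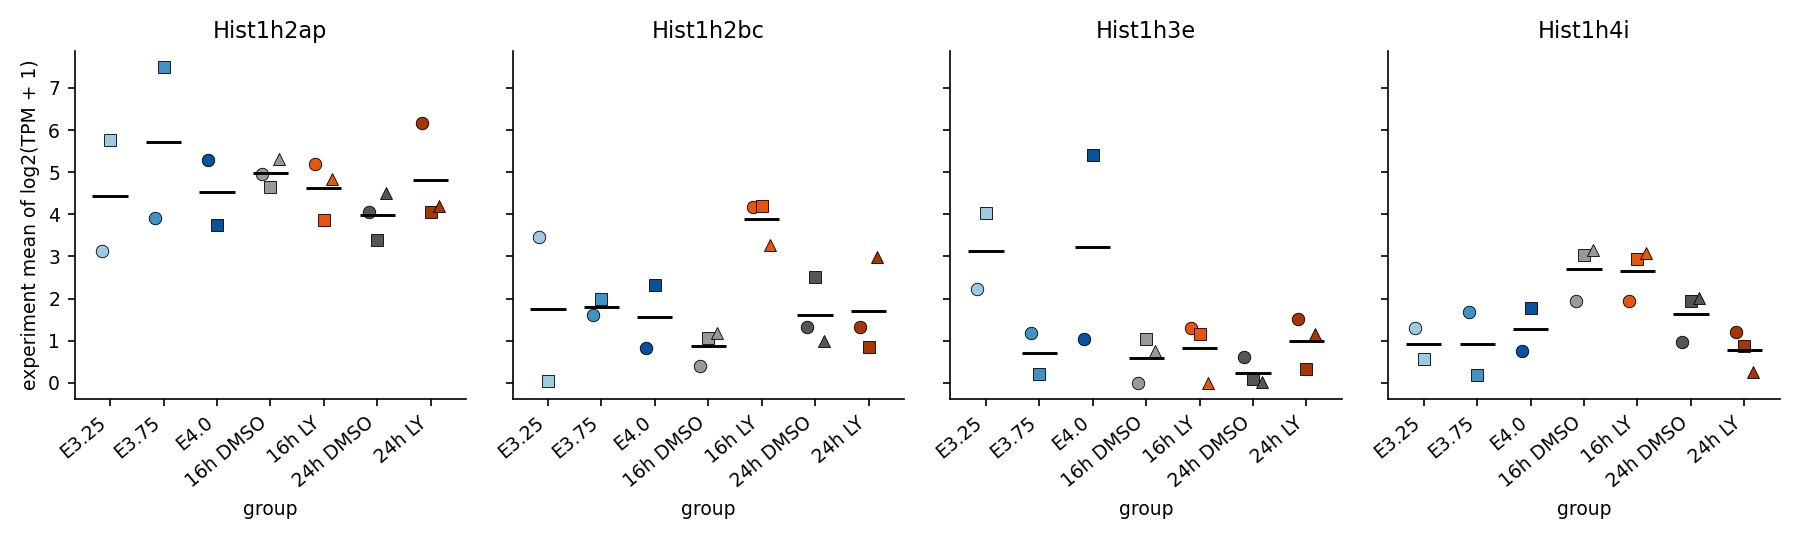
Experiment means of log2(TPM + 1) (y axis) of the H2A gene Hist1h2ap, the H2B gene Hist1h2bc, the H3 gene Hist1h3e and the H4 gene Hist1h4i in the 7 groups (x axis); shapes are experiments and bars group means. For Hist1h2bc the 16h LY experiments (3.28 to 4.19) lie above the 16h DMSO ones (0.39 to 1.18).

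LY against DMSO at 16 hours asks what PI3K inhibition changes by the early blastocyst. Hist1h2bc had the smallest p of all members here. Its experiment means were 4.18, 4.19 and 3.28 with LY and 0.39, 1.05 and 1.18 with DMSO. Each LY experiment was above each DMSO experiment. Among fresh cells, however, the E3.25 experiments stood at 3.46 and 0.05 for this gene, as far apart as the LY and DMSO means. Single cells ran from 0 to 279 TPM with LY (median 20.3) and from 0 to 42.5 with DMSO (median 0), and 25 of 31 LY cells (80.6%, exact 95% interval 62.5% to 92.5%) against 9 of 31 DMSO cells (29.03%, 14.2% to 48.04%) had a TPM of 1 or more. These intervals cover counting error only. The difference was 3.01 (SE 0.77, unadjusted p = 0.00077 and adjusted p = 0.66 by limma). It was higher with LY on 3 of 3 dates (3.79, 3.14 and 2.10), 2.53 in run 1 and 3.753 in run 2. With the number of genes detected as a covariate the difference was 2.99. Its adjusted p ranged from 0.35 to 1 over 19 alternatives, so it did not pass in any.

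Of the 9 other tested H2B genes, 8 were above 0 at 16 hours, with differences from −0.18 (Hist1h2bl) to 1.13 (Hist1h2bk), while all genes had a median of −0.33 and 23.4% were above 0. Of these, Hist1h2bk alone was higher with LY on 3 of 3 dates, and Hist1h2bq and Hist1h2br share most of their sequence. The next by p were Hist3h2ba (1.00, SE 0.42, limma adjusted p = 0.85) and Hist1h2bk (1.13). Hist3h2ba had 3 of 11, 4 of 14 and 3 of 6 cells detected with LY against 0 of 3, 4 of 18 and 0 of 10 with DMSO, and was listed at 0 in every fresh cell. It passed the filter on low values through 16h LY alone, the group where it is highest, so its value adds no support. Hist3h2ba is among the 8 H2B genes above 0, so that count adds no support either. The H4 gene Hist1h4h was at 0.50, and at −0.0578 in run 1. Of the 8 H3 members 7 were below 0 (median −0.38), near the shift of all genes. An unadjusted p under 0.05 was reached by 2 members, where 5.49% of all genes did. Values that move with this comparison are the genes detected per cell (6832 ± 1306 with LY and 8084 ± 1655 with DMSO, SD, n = 3) and marker scores (mean log2(TPM + 1) of a list). The trophectoderm score ran from 1.55 to 2.18 with LY and from 1.62 to 3.81 with DMSO. The primitive endoderm score ran from 0.873 to 1.37 and from 1.33 to 2.24, and the oocyte score from 0.0421 to 0.292 and from 0.337 to 0.652, the last without overlap. The DMSO group includes an experiment of 3 cells with 9995 genes detected. Beyond the covariate fit for Hist1h2bc, their part in the result was not tested.

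At 24 hours Hist1h2bc did not part the arms. Its experiment means were 1.32, 0.84 and 2.98 with LY and 1.34, 2.51 and 0.99 with DMSO, which overlap. The difference between the LY effects at 24 and 16 hours was −2.91 (SE 1.08, unadjusted p = 0.014, limma adjusted p = 1). Hist1h4h had the smallest p at 24 hours: means were 0.00, 0.15 and 0.00 with LY and 0.00, 1.504 and 0.95 with DMSO (−0.77, SE 0.27, limma adjusted p = 0.90). Hist1h4m (1.00), Hist1h2bg (−0.92) and Hist1h2bl (−0.54) followed. Hist1h4h (detected in 15 of 169 cells) and Hist1h2bg (34 cells) had their highest group mean in 24h DMSO, and Hist1h4m (18 cells) in 24h LY. The filter on low values may have kept them through these groups, so their values add no support in comparisons that use these groups. An unadjusted p under 0.05 was reached by 2 members (5.27% of all genes), and 17 of 31 were above 0, with a median of 0.09 beside −0.20 for all genes.

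For the difference between the effects, 4 members had an unadjusted p under 0.05 (2.49% of all genes): Hist1h4h (−1.27), Hist1h2bc, Hist1h4m (1.29) and Hist1h2bg (−1.51). As above, Hist1h4h, Hist1h4m and Hist1h2bg may have passed the filter through a 24h group. Of the 10 H2B members 9 were below 0 there, while 56.3% of all genes were above it. This difference subtracts the LY effect at 16 hours, where 9 of the 10 were above 0, so the count is no separate result. The 10 include Hist3h2ba, which passed the filter through 16h LY alone, and the near-identical Hist1h2bq and Hist1h2br. By their date labels the 16h and 24h cultures were run at different times, so culture time and date cannot be told apart.

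Among the DMSO cultures, 24h against 16h had 10 of 31 members above 0, with a median of −0.33 beside −0.29 for all genes. An unadjusted p under 0.05 was reached by 3 (10.9% of all genes): Hist1h4h (0.78, SE 0.27, limma adjusted p = 0.35), Hist1h3g (−1.53) and Hist1h2bg (1.07). Hist1h4h and Hist1h2bg may have passed the filter through 24h DMSO, where their means were highest. Hist1h2al, a processed pseudogene model that the naming rule keeps, stood at −1.16. Against E3.25, the H4 gene Hist1h4i was high in 16h DMSO. Its means were 1.95, 3.03 and 3.14 in 16h DMSO and 1.2996 and 0.56 at E3.25, and 21 of 31 against 4 of 19 cells had it. The groups did not overlap, and the difference was 1.77 (SE 0.65, limma adjusted p = 0.26). They shared no date, so culture and date cannot be told apart. With LY at 16 hours it was at the DMSO level (1.94, 2.93 and 3.08).

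Hist1h3e was lower in 16h DMSO than at E3.25: 0.00, 1.05 and 0.75, against 2.23 and 4.03 (−2.53, SE 0.86, limma adjusted p = 0.24). Fresh E3.75 cells were also below E3.25 for it (−2.43, SE 0.94), and 24h DMSO minus E3.75 was −0.46 (SE 0.86). At 16h DMSO against E3.25, Hist1h3g (1.47) and Hist1h2aj (0.69) were the next by p. Hist1h3e and Hist1h4i, 2 of 31 members, had an unadjusted p under 0.05 there (13.7% of all genes did). Above 0 were 27 of 31 (median 0.39, all genes 0.32). At 24h DMSO against E3.75, 2 of 31 had an unadjusted p under 0.05 (3.17% of all genes), Hist1h4b (−1.06) and Hist1h4h (0.70). Hist1h4b may have passed the filter through E3.75 and Hist1h4h through 24h DMSO, so neither value adds support. Hist1h2ap (−1.73) and Hist1h3i (−1.27) came next, and both turn above 0 without the second E3.75 experiment (0.07 and 0.33).

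Across all cells, the summed clustered histone RNA had weak negative correlations with cell cycle RNA. Per cell, the S phase and DNA replication score is the mean log2(TPM + 1) of 40 genes, and the G2 and mitosis score that of 56. Over 169 cells, with experiment means subtracted, log2(sum + 1) had a Spearman correlation of −0.19 (Pearson −0.14) with the S phase score and −0.24 (−0.20) with the G2 and mitosis score. With the number of genes detected regressed out within experiments these were −0.06 and −0.22. Within run 1 they were −0.38 and −0.41, and within run 2 −0.14 and −0.09. The number of members detected, in place of their sum, gave 0.07 and 0.11, and correlated at 0.37 with the number of genes detected. With genes detected regressed out, the number of members gave −0.22 for both scores. These are weak values in sparse data, and the points share experiments and amplification.

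The values varied between groups. In 16h LY the Spearman values were −0.58 for the S phase score and −0.62 for G2 and mitosis (31 cells), and the sum correlated at −0.62 with genes detected. With genes detected regressed out they were −0.15 and −0.32. At E3.25 they were −0.42 and −0.45 (19 cells), in 24h DMSO 0.08 and 0.01 (28 cells). Values above 0 also occurred: at E4.0 the G2 and mitosis score gave 0.27 (14 cells), and with genes detected regressed out the S phase score gave 0.25 in 24h DMSO and 0.15 at E3.75. Whether groups differ was not tested. By class, over all cells, the S phase score gave 0.13 for H1, −0.07 for H2A, 0.06 for H2B, 0.01 for H3 and 0.13 for H4. With genes detected regressed out these were −0.01, −0.06, 0.03, −0.09 and −0.03.

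**Figure D5:**
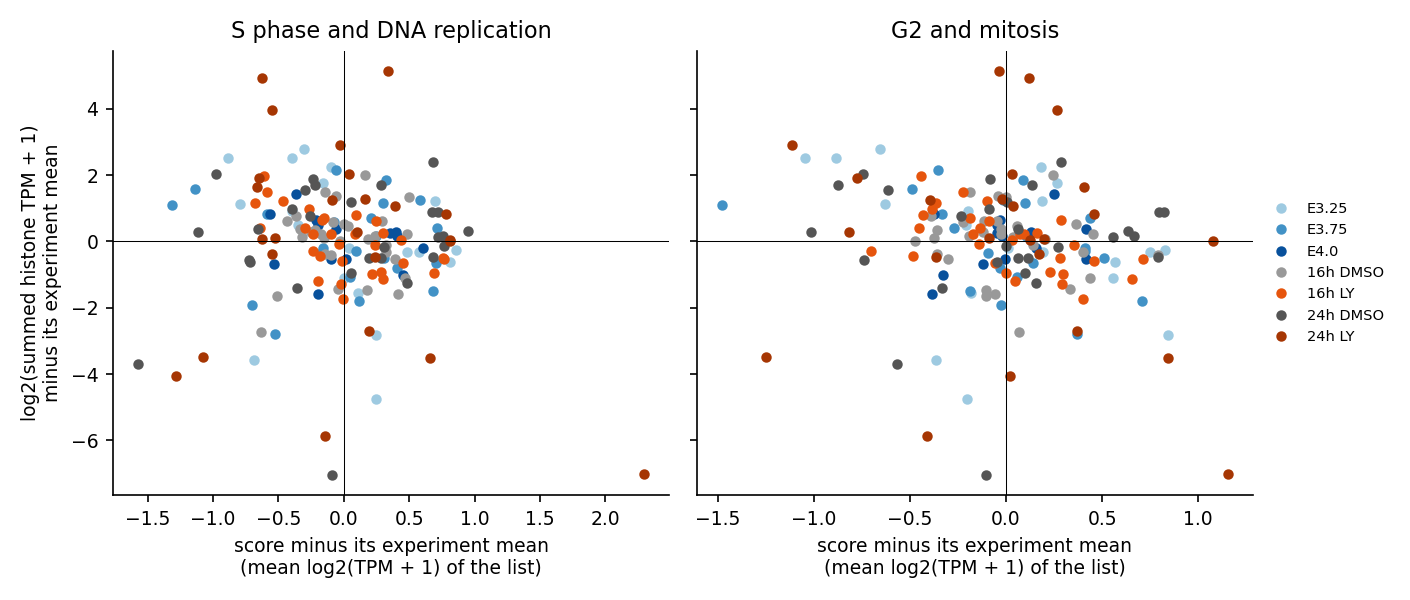
Each point is a cell: log2(summed clustered histone TPM + 1) minus its experiment mean (y axis) against the S phase score (left) and the G2 and mitosis score (right), each minus its experiment mean (x axes). The clouds show no upward slope (Spearman −0.19 and −0.24 over 169 cells).

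Among 11649 other tested genes, those whose level went most with the sum across cells (Spearman, experiment means subtracted) were Dctpp1 (0.41), a dCTP pyrophosphatase, Ppm1g (0.38), a protein phosphatase, Cox8a (0.38), Chchd2 (0.37) and Uqcrfs1 (0.36). Cox8a and Uqcrfs1 are parts of the respiratory chain. The lowest were Rpl7 (−0.38), a ribosomal protein, Kpna2 (−0.37), a nuclear import receptor, Ibtk (−0.37), Gtf2e1 (−0.36), a general transcription factor, and Emc2 (−0.36). Kpna2 also correlated at 0.51 with genes detected.

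The genes that serve histone production gave no call either. Npat and Casp8ap2, which act at the histone locus body where these genes are transcribed, were near the detection limit: Npat was at a TPM of 1 or more in 0 of 19 cells at E3.25 and in at most 35.5% of cells elsewhere (16h DMSO). Slbp was detected in 87.5% to 100% of cells, with group means of 4.30 to 5.18 as log2(TPM + 1). Lsm11, a part of the U7 particle that cuts histone pre-mRNA, was detected in 12.9% to 39.3%. For LY against DMSO, Slbp differed by −0.27 (SE 0.54) at 16 hours and −0.07 (SE 0.54) at 24 hours. Of 15 tested genes of histone transcription and RNA processing, 0 passed in any comparison. The smallest p with LY belonged to Ncbp1, a subunit of the cap-binding complex, at both times (−1.83, SE 0.61, limma adjusted p = 0.81; −2.26, SE 0.61, adjusted p = 0.90), followed by Eri1 (−1.38 at 16 hours), the exonuclease that binds the histone stem-loop, and Ncbp2 (−1.87 at 24 hours).

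Replacement histones, which are made also outside S phase and from polyadenylated mRNA, include genes found in nearly every cell. H2afz, encoding H2A.Z, was detected in every cell but 1 and had group medians of 1667 to 3171 TPM. H3f3a and H3f3b, both encoding H3.3, had group medians of 295 to 554 and 430 to 1415 TPM. For H3f3b the highest value was in 16h LY (median 1415 TPM, against 430 in 16h DMSO), a difference of 1.12 (SE 0.51, limma adjusted p = 0.85). H1f0, a linker histone of non-dividing cells, was 1.89 higher with LY at 16 hours (SE 1.02, limma adjusted p = 0.85). H2afy2 (−0.78) and H1fx (0.68) had the smallest p at 24 hours. None of the 10 tested genes passed in any comparison, and their score correlated at 0.22 with the clustered histone sum across cells.

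Of the cell cycle lists, 0 of 39 tested S phase genes, 0 of 52 G2 and mitosis genes, 0 of 9 genes of G1 to S control and 0 of 23 histone chaperones passed in any of the 9 comparisons. With LY at 16 hours, 4 of 39 S phase genes were above 0 (median −0.63) and 8 of 52 G2 and mitosis genes (median −0.35). Of all genes 23.4% were above 0, with a median of −0.33. The smallest p there belonged to Cdc6 (−1.48), which loads the replicative helicase, and Tyms (−1.60), to Cdk1 (−1.99), the mitotic kinase, and Ckap2 (−0.87), to Ccne1 (−1.41) and Cdk2 (−0.85), a pair that starts S phase, and to the chaperones Asf1b (−1.36) and Asf1a (−1.28). At 24 hours 6 of 39 S phase genes were above 0 (median −0.59), with Cdc45 (−1.75) and Mcm4 (−1.37) of smallest p, while G2 and mitosis genes had a median of 0.08, with Cks1b (−2.46) and Ndc80 (−1.67). Of all genes 32.6% were above 0 at 24 hours, with a median of −0.20. In G1 to S control Cdkn1a (1.60) and E2f1 (−0.84) had the smallest p, and among chaperones Nap1l1 (1.04) and Ssrp1 (−1.24). At an unadjusted p under 0.05 stood 0 S phase, 0 G2 and mitosis, 1 G1 to S and 1 chaperone gene at 16 hours by limma, and 3, 2, 0 and 0 at 24 hours. The share of all genes there was 5.49% at 16 hours and 5.27% at 24 hours.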

How the data were processed

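RNA of single inner cells was measured as TPM in 1 table. The authors deposited TPM values for 170 columns, each matched to a sample by its title; 16 of 186 labelled samples were not analysed here. RSEM 1.3.3, STAR 2.7.9a, bcl2fastq 2.20.0, cutadapt 2.9 and build mm10 are named in the submitters' processing notes; settings and gene annotation are not given in the sources used here. Of 55513 lines, 92 were spike-ins and were left out. A pair of E3.25 columns with the same cell name was averaged (r = 0.82, above 0.78 with any other cell); a 24h LY pair (0.59, below 0.72) was kept apart. This left 169 cells in 18 experiments of 3 to 18 cells.

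Each experiment's value was the mean of log2(TPM + 1), with a pseudocount of 1. The 11680 genes that 25% or more of the cells of some group held at a TPM of 1 or above were fitted over all 7 groups with limma 3.58.1 in R 4.3.3 (eBayes with trend), Benjamini-Hochberg adjusted per comparison, threshold 0.05; p-values measure the spread between experiments. The fit was tested on simulated data. At each culture time the labels give LY and DMSO the same 3 dates, so dates pair them. Same-date deviations from group means correlated at 0.39, 0.12 and 0.32 at 16 hours and 0.23, 0.12 and 0.07 at 24 hours across genes. The date as a replicate block was an alternative.

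The members and lists were chosen with earlier results of these data known. Named were the 2 highest members of each class, the 4 members of smallest p in each comparison, the 2 list genes of smallest p in each LY comparison, list genes past the threshold, fixed regulators and replacement histones, and the 5 genes at either end of the correlation with the sum. The H2B sum without Hist1h2bc was added after seeing the data. Further names (Hist1h1b, Hist1h2ac, Hist1h2ah, Hist1h2ao, Hist2h2ac, Hist2h3c1, Hist2h4) were chosen after their values were seen. All 69 members matched GENCODE M21 by symbol. Shared windows count 50-base stretches found in another gene's transcript on either strand. Intervals for shares are exact Clopper-Pearson at 95%, and a share of 0 allows up to 3 counts.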

Additional observations from a re-analysis of the deposited data

How the results depend on the processing

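Depth is unknown, reads of near-identical copies may be shared, and 2 or 3 experiments per group limit what can be called. Where an experiment was left out of a fresh stage, the lone experiment left was assumed to vary like the other groups. With the replicate block (paired dates) 0 members and 0 genes passed in each LY comparison and Hist1h2bc at 16 hours kept 3.01 with an adjusted p of 0.35 by limma; the block changed no call. Of 163 alternatives to the counts of members called, 159 also gave 0. Of the others, 1 member passed at E4.0 against E3.75 (Hist1h3e) and 1 at E4.0 against E3.25 (Hist1h2bq) without the first E4.0 experiment, so that leaving out experiments gave 0 to 1 there. Without the filter on low values 1 member, Hist4h4, passed at E4.0 against E3.25 and 1, again Hist4h4, at 16h DMSO against E3.25. Over alternatives the count of all genes called ran from 0 to 278 at E4.0 against E3.75 (165 as reported), 0 to 361 at E4.0 against E3.25 (195), 0 to 90 at E3.75 against E3.25 (0), 0 to 81 at 16h DMSO against E3.25 (6), 0 to 17 at 24h DMSO against E3.75 (0), 0 to 8 at 24h against 16h DMSO (1) and 0 to 2 with LY at 16 hours (0). The difference in the log2 sum ranged from −0.48 to 1.83 at E3.75 against E3.25, −1.66 to 0.65 at E4.0 against E3.75 and −2.01 to 0.302 at 24h DMSO against E3.75 when 1 experiment was left out, the ends being set by the 2 E3.75 experiments. For LY at 24 hours (−0.23) it was 0.69 from the log2 of the mean sum, 0.93 from medians over cells, 0.59 in run 1 and −1.11 in run 2; the difference between LY effects (−0.84) was 0.0249, 0.50, 0.058 and −1.91 in the same order. Counting members instead of summing them gave 0.0747 and 0.110 for the S phase and G2 correlations, and −0.219 for both with genes detected regressed out. Hist1h2bg at E4.0 against E3.25 ranged from −0.115 (without the first E4.0 experiment) to 1.90 when 1 was left out, Hist1h4h with LY at 16 hours was −0.0578 in run 1, and at 24h DMSO against E3.75 Hist1h2ap ranged from −3.53 to 0.0708 and Hist1h3i from −2.86 to 0.325, the upper ends being without the second E3.75 experiment. The cause was not tested.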

Other observations

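The 10 cells with the lowest summed clustered histone TPM ran from 0 to 17.4 TPM. They were 6 cells of 24h LY, 2 of 24h DMSO and 2 of E3.25. In the first 24h LY experiment, 3 of 7 cells had sums of 0, 1.18 and 6.69 TPM with 4781, 4241 and 4042 genes detected, while the highest cell of the same experiment stood at 4529 TPM.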
